A study of Mus musculus with 8 samples.

Results

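The regions described here are 434 windows of 10 kb on the nuclear chromosomes of the mouse over which SRSF3 signal was both strong and spread out. They were chosen by their measured values. Crosslinked cDNAs were summed per window and strand and scaled to 1000000 cDNAs of the library (CPM), and a window was kept where it held 100 CPM or more in both iCLIP replicates and no single position held over 5% of its cDNAs in either. Of 237934 combinations of nuclear window and strand with a cDNA in either replicate, 450 reached the level, 16 of these were left out because of 1 dominant position, and the 434 that remained were 0.182% of the total. Level, dominance of a position and, in part, evenness and run length are therefore fixed by the selection and are given as descriptions, without a test.

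The series holds 8 mouse samples: 3 hearts labelled SRSF3 knockout and 3 control hearts, not analysed here, and 2 iCLIP replicates. For iCLIP, cardiomyocytes of C57BL/6 pups at P0-1 were plated and given 15 µg of modified mRNA for SRSF3-GFP with 21 µL of Lipofectamine 2000. They were irradiated after 48 h with 100 mJ of UV light at 254 nm, and RNA was cut to 80 to 200 nt and recovered through the GFP tag. Both replicates were of this one group, with no library of untagged cells or of input RNA used here, so the signal of a window reflects the amount of its RNA as well as binding, and these cannot be told apart. The cells carried a transfected, tagged SRSF3 next to their own.

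SRSF3 is the smallest member of the SR protein family, RNA-binding proteins that guide the choice of splice sites, and it also takes part in the export of mRNAs to the cytoplasm. The short motifs it recognises are rich in pyrimidines. In iCLIP, UV light links the protein to the RNA it touches, reverse transcription stops at the link, and each cDNA marks 1 nucleotide of contact. The heart expresses some of the longest transcripts known, and introns make up most of the length of many of them.

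The tracks held 815414 cDNAs in replicate 1 and 2253688 in replicate 2. A merged track, whose header lists 5 library identifiers, held 1138453 cDNAs beyond those of both replicates. With 2 of the 5 taken to be the replicates, these cDNAs are ascribed to 3 further libraries, whose labels are not used here. The header does not itself give that number. It is uncertain, since both replicates name the same library identifier in their headers. These libraries are called the other libraries and did not enter the selection. The headers of both replicates name one library identifier, and the labels do not say whether they came from separate cultures, so the spread between them may be technical. All coordinates are in mm9, counted from 1.

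The 434 windows held 12.1% of the library in replicate 1 and 11.5% in replicate 2. Levels in replicate 1 ran from 101 to 13008 CPM with a median of 153, and in replicate 2 from 100 to 11950 with a median of 150. Most windows were near the threshold: 296 were under 200 CPM in replicate 1 and 299 in replicate 2, while 10 and 9 reached 1000. The 10 strongest windows held 31.7% of the windows' cDNAs in replicate 1 and 29.8% in replicate 2. The counts behind a window ranged from 82 to 10607 cDNAs in replicate 1 and from 226 to 26932 in replicate 2, so single windows near the threshold are known less precisely in replicate 1.

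**Figure D1:**
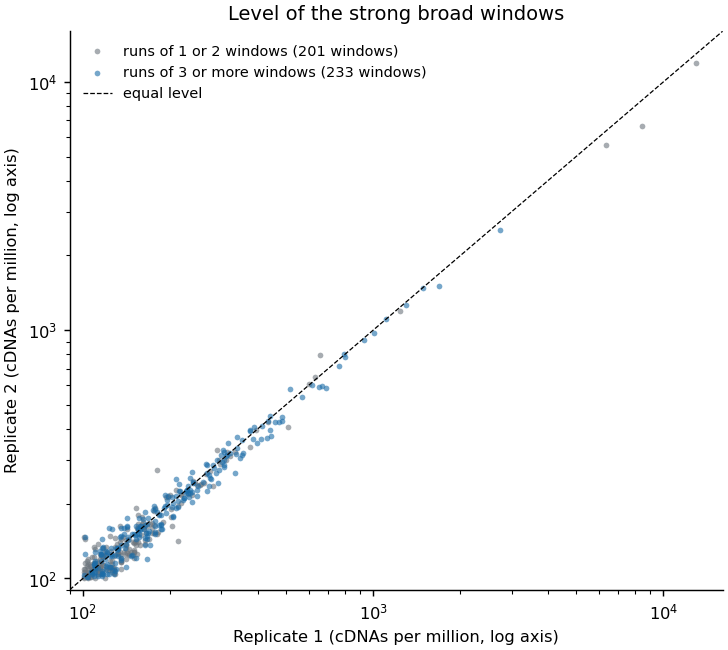
Level of each of the 434 windows in replicate 1 (horizontal) and replicate 2 (vertical), in CPM on log axes; blue points lie in runs of 3 or more neighbouring windows and grey points in shorter runs. The points lie along the line of equal level from the threshold of 100 to about 13008 CPM in the strongest window.

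The strongest window, chr19:5790001-5800000 on the minus strand, held 13008 CPM in replicate 1 and 11950 in replicate 2. The adjoining window, chr19:5800001-5810000 on the minus strand, held 6366 and 5589. Signal filled only part of each: the middle 95% of cDNAs spanned 3779 and 3808 nt in the first and 2452 and 2493 nt in the second. A separate run on the same strand followed at chr19:5820001-5850000, and its window from 5840001 held 1295 and 1267 CPM. The second strongest window, chr17:39980001-39990000 on the plus strand, held 8461 and 6659 CPM, with its middle 95% within 5199 and 5224 nt. These 3 leading windows were thus blocks of a few kb and were not filled from end to end.

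A group of strong windows lay on chromosome 14 on both strands. On the minus strand, chr14:55570001-55580000 held 2735 and 2526 CPM, chr14:55560001-55570000 held 1681 and 1504, and chr14:55580001-55590000 held 1491 and 1481, all in 1 run of 4 windows. On the plus strand a run of 5 windows began at 55580001, and its window from 55590001 held 1007 and 976.2 CPM. The window from 55580001 was the only one that was selected on both strands. The remaining windows among the 10 strongest were chr1:137740001-137750000 on the plus strand, with 1234 and 1197 CPM, and chr2:76730001-76740000 on the minus strand, with 1111 and 1109. The latter lies in the longest run.

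Neighbouring selected windows of a strand formed 206 runs. Of these, 135 were single windows, 33 were pairs, 38 had 3 or more windows and 15 had 6 or more. The 15 long runs held 155 windows, or 35.7% of all, against 31.1% in single-window runs. The longest spanned 28 windows without a break, and the next spanned 17, 15, 11, 10, 10, 9, 9, 8 and 8.

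The run of 28 windows, chr2:76540001-76820000 on the minus strand, held 12814 CPM in replicate 1 and 12159 in replicate 2 (12487 ± 463.3, SD, n = 2). Its windows ranged from 143.5 to 1111 CPM in replicate 1 and from 142.9 to 1109 in replicate 2. The edges were sharp. The window next to the 5′ edge held 22.07 and 19.08 CPM and the one next to the 3′ edge 6.132 and 7.987, while the first and last windows of the run held 164 and 186, and 459 and 428. Read 5′ to 3′, the level peaked at 1111 and 1109 in the ninth window and fell to 228 and 227 in the twelfth. It rose again to 688 in the fifteenth in replicate 1 and to 595 in the sixteenth in replicate 2. This run is the one matched to titin below.

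The second run, chr6:118840001-119010000 on the minus strand with 17 windows, was flatter and held 2303 CPM in replicate 1 and 2302 in replicate 2. Its windows ranged from 100.6 to 193.8 in replicate 1, a ratio of 1.927. The third, chr17:81900001-82050000 on the minus strand with 15 windows, held 4124 and 4101 CPM and belonged to a longer stretch of 37 windows that were all at 25 CPM or more in both replicates. The fourth, chr13:12090001-12200000 on the minus strand with 11 windows, held 2253 and 2240. It began abruptly, with no cDNA in the 5′ flanking window of either replicate and 352 and 315 CPM in its first window, and its level declined towards 147 and 124 in its last. At 25 CPM this run continued 3′ into the longest stretch of all, 56 windows from 11640001 to 12200000.

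The runs of 10 were chr19:53750001-53850000 on the plus strand, with 2147 and 2093 CPM, and chr8:46820001-46920000 on the plus strand, with 2015 and 2100. The run on chromosome 8 ended as sharply as the first: the window after its 3′ edge held 1.226 and 0.8874 CPM. The runs of 9 were chr18:16850001-16940000 on the minus strand, with 1359 and 1358, and chr11:119260001-119350000 on the plus strand, with 1372 and 1339. The runs of 8 were chr5:93240001-93320000 on the plus strand, with 1868 and 1849, and chr1:43180001-43260000 on the minus strand, with 1607 and 1555. Over these 10 longest runs the replicates' totals differed by at most 5.25% of their mean.

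**Figure D2:**
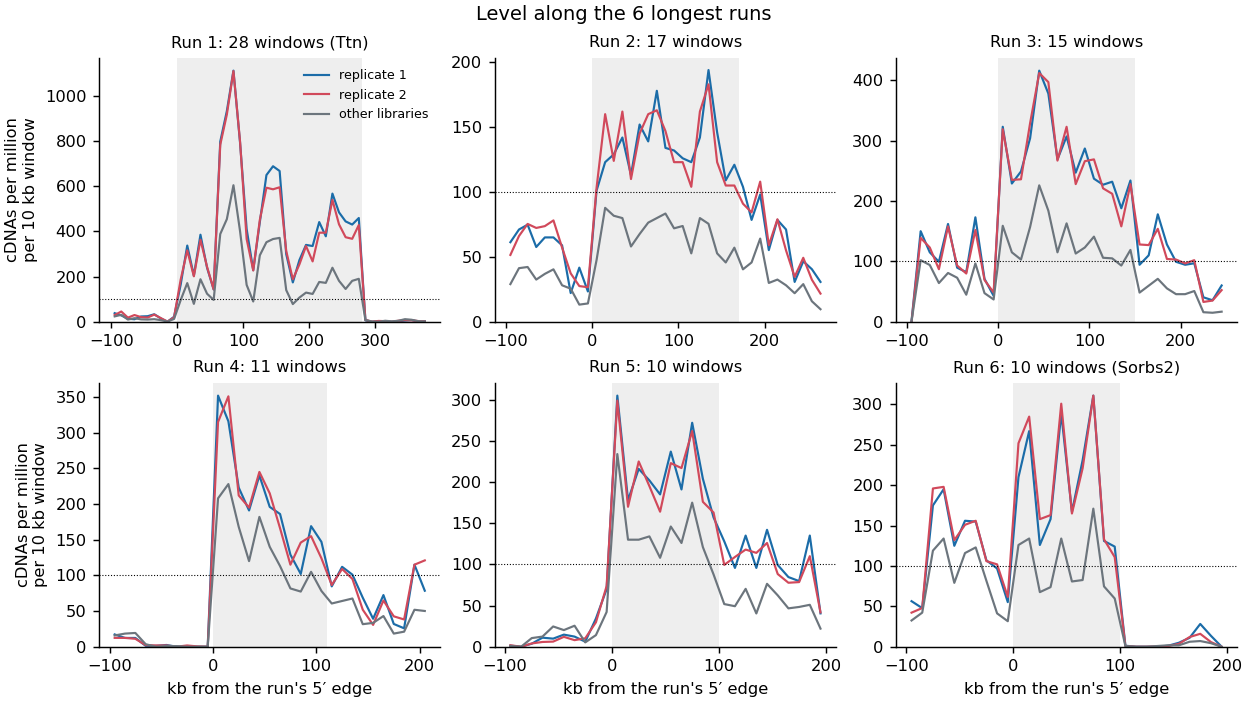
Level per 10 kb window along the 6 longest runs, read 5′ to 3′ along their strand, with 10 windows on either side; the horizontal axis is kb from the 5′ edge, the vertical axis CPM, the shaded area the run and the dotted line the threshold of 100. Replicates 1 and 2 overlap along each run, and run 1 falls to 6.132 CPM in replicate 1 just beyond its 3′ edge. Within the runs the other libraries lie lower, while in places outside them they lie higher. Their highest window is that of the replicates in run 1 but not in every run. In run 2 the replicates are highest at 194 and 183 CPM, where the other libraries hold 75.5, below their own highest of 87.8.

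Over the 38 runs of 3 or more windows, the strongest window exceeded the weakest by a median ratio of 1.77 in replicate 1 and 1.75 in replicate 2, from 1.1 to 15 and from 1.08 to 15.3. The 5′ part of the run, up to its midpoint, held more than 50% of the cDNAs in 26 runs in replicate 1 and in 27 in replicate 2, with a median share of 52.2% in both. The longest stretch without a cDNA position in either replicate had a median of 544 nt over these runs and ranged from 143 to 6224 nt, the last within the run of 28 windows. Runs differed in how they ended. Over all 206 runs, 92 had 25 CPM or more on both sides in both replicates. The windows next to the ends had a median of 46 CPM at the 5′ side and 47.8 at the 3′ side in replicate 1, and 48.4 and 49.9 in replicate 2. At a level of 25 CPM only 23 of the 135 single windows still stood alone, and the median stretch was 5 windows long. Many single windows were therefore the crests of longer, weaker signal.

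Evenness was measured as the number of 100 nt bins, out of 100 in a window, expected to be hit when 80 of its cDNAs are drawn; a flat signal would hit 55.2. The median was 47.8 in both replicates, and windows ranged from 4.32 to 56.1 in replicate 1 and from 4.82 to 55 in replicate 2. The middle 95% of cDNAs spanned more than 9000 nt in both replicates in 225 windows and less than 3000 nt in both in 6. The strongest bin held a median of 6.19% and 4.86% of a window's cDNAs.

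The most even windows, by the mean of both replicates, lay inside long runs. They were chr6:118950001-118960000 on the minus strand with 55.27 and 55 bins, chr13:12160001-12170000 on the minus strand with 55 and 53.67, and chr2:76580001-76590000 on the minus strand with 54.26 and 54.31. By the same mean, the least even was chr6:3150001-3160000 on the plus strand, with 4.323 and 4.818 bins. Its 148 and 347 cDNAs fell within 753 and 754 nt, on 61 and 81 positions, and it passed the position limit with 4.73% and 4.611% at its strongest position. It therefore met the rule without being broad. The next were chr2:90950001-90960000 on the plus strand, with 19.46 and 20.46 bins, and chr13:12430001-12440000 on the minus strand, with 21.32 and 21.69.

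**Figure D3:**
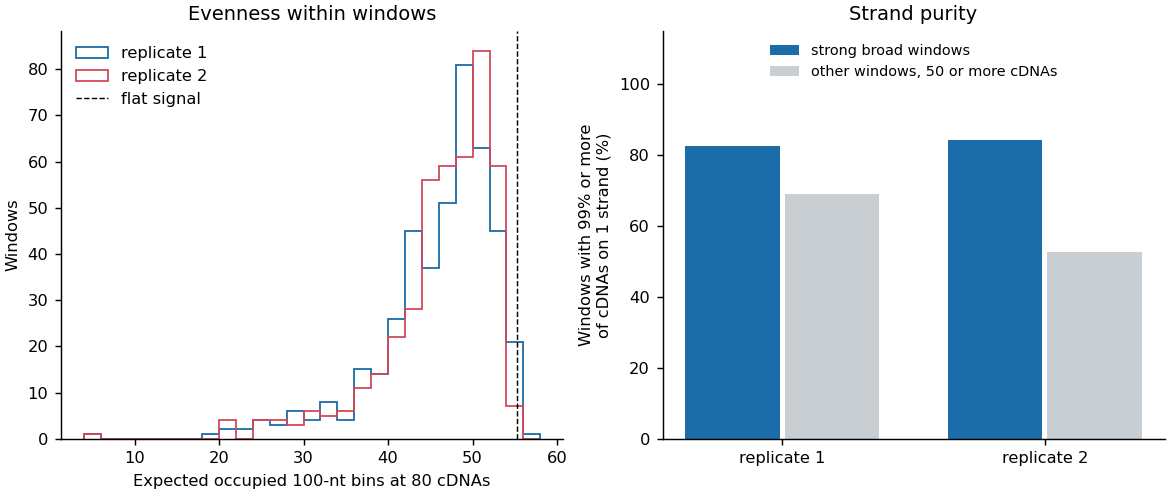
Left, number of windows (vertical) by evenness (horizontal, expected occupied 100 nt bins at 80 cDNAs) in each replicate, with the value of a flat signal, 55.2, dashed. Right, share of windows with 99% or more of cDNAs on 1 strand in the 434 windows (82.5% and 84.3%) and in other nuclear windows with 50 or more cDNAs (69% and 52.7%).

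The profile of a window over 100 nt bins was compared between the replicates. Pearson's r over the 100 bins, given as a description, had a median of 0.59 and ranged from -0.02 to 1; the profiles share the mappable sequence of the window and differ in depth. It was 0.9997 in the narrow window on chromosome 6 and 0.992 in the strongest window on chromosome 19, but 0.0785 in the most even window. These windows differ in depth as well as in shape, and the parts of depth and shape in r were not separated. Sharing of exact nucleotides was counted as well, a measure unlike r that depends on the depth of replicate 2. The share that unrelated positions would give was not estimated. A median of 12.2% of the positions of replicate 1 were also hit in replicate 2, against 95.25% in the strongest window, which is also the most deeply counted.

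The opposite strand did not enter the selection. The share of a window's cDNAs on its selected strand had a median of 100% in replicate 1 and 99.8% in replicate 2. It was 99% or more in 358 windows (82.5%) and 366 windows (84.3%). Among other nuclear windows with 50 or more cDNAs over both strands, each read on its stronger strand, it was 99% or more in 69% of 1008 in replicate 1 and 52.7% of 8867 in replicate 2. Those windows hold fewer cDNAs, and their number differs between replicates with depth, so the shares are set side by side without a test. In 297 and 175 of the 434 windows no cDNA lay on the opposite strand.

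Purity was under 90% in both replicates in 7 windows. The lowest was the plus strand of chr14:55580001-55590000, with 10.59% and 11.44%, where 144 and 431 cDNAs faced 1216 and 3338 on the minus strand, which was selected too. The plus strand signal there spanned only 2253 and 2319 nt. The next lowest were neighbours on the plus strand of chromosome 11. The window chr11:58820001-58830000 had 74.42% and 79.93%, and chr11:58810001-58820000 had 76.64% and 75.23%. The run of 6 windows at chr17:12930001-12990000 on the plus strand was mixed along its length, with 94.1% and 93.31% over the run.

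The windows were unevenly spread over chromosomes. Chromosome 17 held 45 windows, or 4.72 per 1000 windows of its covered length, and chromosome 19 held 23, or 3.75 per 1000. Chromosome 2 held 41, of which the longest run made up 28. At the other end, chromosome 12 held 4, chromosome X 5 and chromosome 15 5. On the minus strand lay 251 windows and on the plus strand 183, a difference to which the 4 longest runs, all on the minus strand, contributed 71 windows.

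The files give no gene names and no annotation of mm9 was used, so loci were named by the shape of their signal together with chromosome and strand. Selected windows with up to 3 other windows between them were joined into 178 loci. The exon patterns of 16519 gene models of GENCODE M21, with at least 5 exons each, from all chromosomes and both strands, were slid along the signal of each locus, using only the distances between exons and no coordinate. Chromosome and strand of the best model did not enter the score and were asked for afterwards, as a condition of a name; a median of 2.54% of all models lie on a locus's own chromosome and strand. The best model led every model from another place by 1 or more, in SDs of the profile, at 58 loci. It lay on the locus's own chromosome and strand at 48 of them, on its own chromosome but the other strand at 3, and on another chromosome at 7. The score was settled with its agreement in chromosome known, and the margin after the matches were seen. This agreement is therefore not a blind check of the names. A locus was named where the model lay on its own chromosome and strand and either led by that margin or was also the best in the other libraries, which added 1 locus. This gave 49 loci and 48 genes with 150 of the 434 windows (34.6%). All 30 pairs of neighbouring named loci stood in the gene order of the annotation, but gene order had a part in the choice of the search, so this count is no independent support for the names. A name is thus the best-matching model and not an annotation, 10 of 58 matches that passed the margin were wrong about place, and 129 loci, among them all 3 strongest windows, are given by position only. At 14 further loci the best model lay on the locus's own chromosome and strand but met neither criterion, and these are not named. RNAs with fewer than 5 exons were not searched.

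The matches changed with the libraries and the bin size used. In place of 48, 24 loci passed the margin on their own chromosome and strand with bins of 100 nt, 26 without replicate 2, 44 without replicate 1 and 21 in the other libraries alone. The best model stayed the same in all 4 of these settings at 19 of the 49 loci, among them those of Ttn, Tns1, Rnf213, Hspg2, Actn2, Mical2, Flna, Ryr2 (both loci), Lmo7, Wnk1, Dst, Pkp2, Enah, Kmt2e, Fn1 and Pde4dip. It stayed the same in 3 settings at 16 loci, in 2 at 10, and in 1 at 4, among them those of Myocd, Mbnl2 and Kidins220, whose names are the least secure by this count.

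Among the 17 sarcomere genes listed, all 17 of them in the search, 4 were matched, among them Ttn, Actn2 and Myom1. Over all 16519 models searched, 48 genes (0.291%) were matched, and this is the background for every list below. The lists were written with earlier results of these data known, so nothing is read from their counts. Ttn encodes titin, the giant spring protein that spans from Z-disc to M-band. Its match was the clearest of all, with a score of 34.73 against 8.98 for the next model from another place, and it covers the run of 28 windows. At the matched placement 63.31% of the distinct positions lay in exons, which made up 40.77% of the length. Actn2 encodes the alpha-actinin that crosslinks actin at the Z-disc, and its 4 windows from chr13:12360001 held 503 and 516 CPM (510 ± 9.67, SD, n = 2). Myom1 encodes the M-band protein myomesin, and its 2 windows from chr17:71430001 held 488 and 512. Other muscle proteins outside the list, picked after the matches were seen, included Flnc, the muscle filamin, with 372 and 357 over 2 windows, and Speg, a muscle kinase, with 104 and 105 in 1 window. The models of Myom1 and Flnc stayed the best in 3 of the 4 alternative settings and that of Speg in 2. None of these models was the best in the other libraries.

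Of 8 genes of calcium handling, 7 were in the search and 3 were matched (Ryr2, Atp2a2 and Cacna1c), beside 0.291% of all models. Ryr2 encodes the calcium release channel of the sarcoplasmic reticulum and was matched at 2 loci of the same strand, 2 windows from chr13:11700001 with 269 and 270 CPM and 1 window from chr13:11860001 with 155 and 140. Both lie inside the stretch of 56 windows at 25 CPM or more that begins, at its 5′ end, with the unnamed run of 11 windows. Atp2a2 encodes the pump that returns calcium to the reticulum, and its 6 windows from chr5:122900001 held 1255 and 1227. It was named by the second criterion, which asks for no margin, since its lead was 0.73 in the replicates. In the other libraries the lead was 0.43. Cacna1c encodes the pore of the L-type calcium channel, and its window from chr6:118580001 held 142 and 158. The run of 17 windows lies 250 kb away on the same strand and was not itself matched.

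Of 8 genes of adhesion and the Z-disc, all 8 in the search, 3 were matched, among them Sorbs2 and Tns1. Sorbs2 encodes an adaptor of Z-discs and cell junctions, and its 16 windows from chr8:46740001 held 2927 and 3039 CPM (2983 ± 79.3, SD, n = 2), second to Ttn among named loci. Tns1 encodes tensin 1, which ties integrins to actin, and its 9 windows from chr1:73950001 held 1478 and 1446. Outside the lists, some matches with known roles at the cytoskeleton or at junctions, picked after the matches were seen and not a full account, were Pdlim5 (537 and 560 over 4 windows), Phldb2 (535 and 516 over 4), Mical2 (449 and 475 over 3), Actn4 (342 and 350 over 2), Flna (305 and 321 over 2), Lmo7 (229 and 220 over 2), Sptbn1 (266 and 264 in 1) and Pkp2, a plakophilin of the desmosome (128 and 106 in 1). Among these, the model of Phldb2 was not the best in the other libraries.

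Of the 18 genes of SR proteins and splicing, 16 were in the search, and of the 7 nuclear noncoding RNAs 4 were; none of either list was matched. This does not show that they lack signal. At the locus with the run of 10 windows on chromosome 19 the best model was that of Rbm20, a splicing regulator of the heart that is on the list. It lay on the locus's own chromosome and strand, with a lead of 0.94, just under the margin of 1, and was not the best model in the other libraries, so the locus has no name here. Mbnl2, a splicing regulator that is on neither list, was matched at 1 window from chr14:120730001 with 118 and 123 CPM. Genes of chromatin and transcription among the matches included Kmt2e (114 and 111 in 1 window), Srcap, a chromatin remodeller (101 and 147 in 1), Nfat5, a transcription factor of the response to salt stress (110 and 131 in 1), and Myocd, the coactivator of muscle genes (364 and 340 over 3). Rnf213, a very large ubiquitin ligase, filled the run of 9 windows on chromosome 11 with 1372 and 1339.

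Marker lists of cell types were also counted among the matches, which is no check of the labelled cell type. Of 10 cardiomyocyte markers 8 were in the search and 3 were matched (Actn2, Ttn and Ryr2), beside 0.291% of all models. Of 7 fibroblast and matrix markers, all 7 in the search, 1 was matched, Fn1, the gene of fibronectin, at 1 window from chr1:71640001 with 108 and 109 CPM. None of 4 endothelial and 3 smooth muscle markers, all in the search, was matched, nor were the 2 of 3 immune markers that were in it; neither of the 2 erythroid markers was in the search. Counts this small do not settle which cells the RNA came from. A marker without a match may still hold signal, since 129 of the 178 loci have no name. Matrix genes outside the lists, picked after the matches were seen, included Hspg2, which encodes perlecan of basement membranes, with 1137 and 1003 over 6 windows from chr4:137060001, and Col4a2, a basement membrane collagen, with 262 and 238 over 2. The model of Hspg2 stayed the best in all 4 alternative settings. That of Col4a2 did so in 2 and was not the best in the other libraries. Whether the signal at Hspg2 and Col4a2 came from cells other than cardiomyocytes was not tested.

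The placement of a model was chosen to put signal into its exons, so a higher density in exons than in introns is built into these matches and is not a finding. The signal recurs in the other libraries, so they give no independent check of it either. The shares below were counted over the placed model within the locus and the sequence included on either side, not over the selected windows alone. How far this reached beyond the windows differed. At Mbnl2 672 positions of the other libraries were counted, while its window held 99 of their cDNAs. At Ttn 6479 were counted, and its windows held 6942. At the chosen placements the larger part of the positions so counted lay outside exons in most loci. A median of 31.2% of the distinct positions of the replicates lay in exons, which covered a median of 10.5% of the length, and 40 of the 49 loci had 50% or less in exons. The share was 5.15% in Mbnl2, the lowest, 12.79% in Sorbs2, 32.88% in Atp2a2 and 80.85% in Atxn2l, the highest.

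**Figure D4:**
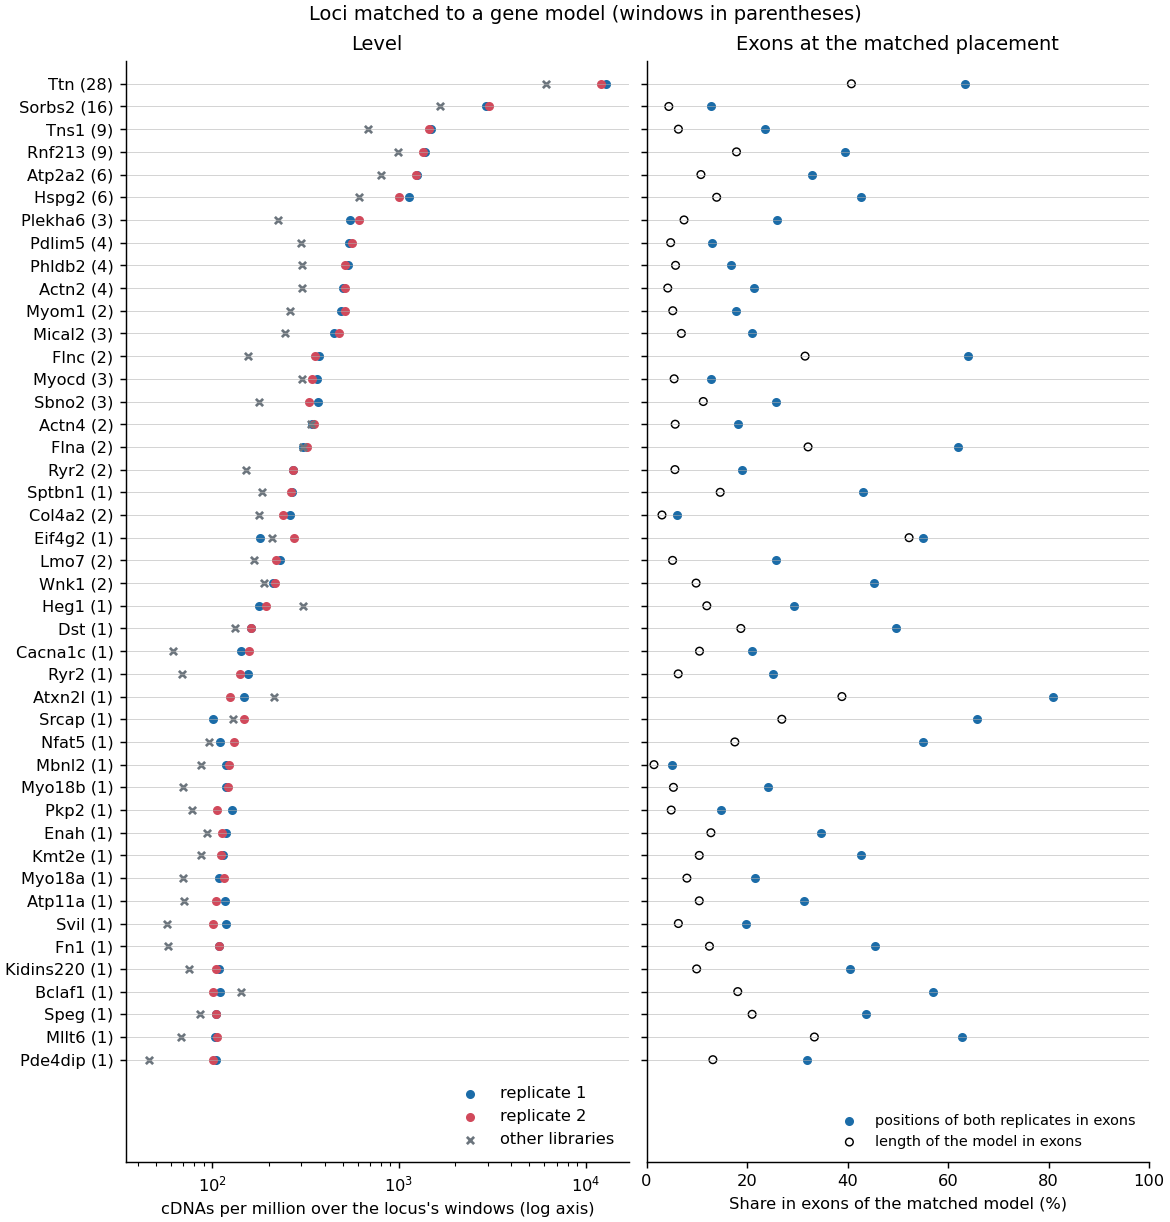
Loci matched to a gene model, 44 of the 49, ordered by the mean level of the replicates, with the number of selected windows in parentheses. Left, CPM over the locus's windows on a log axis in each replicate and in the other libraries, from 12814 and 12159 in Ttn to about 105 and 101 in Pde4dip. Right, percent in exons of the distinct positions of the replicates (filled) and of the model's length (open). The placement was chosen to put signal into exons. These shares cover the placed model within the locus and the sequence included on either side, not the selected windows alone. The share of positions runs from 5.15% in Mbnl2 to 80.85% in Atxn2l.

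The replicates were also set against each other window by window. The rule asked for a high level in both, so the outcome for the selected windows is partly fixed by it and is given as a description. A two-sided exact binomial test of each window against the library totals, adjusted by Benjamini-Hochberg over 13920 windows and strands with 50 or more cDNAs, called 5 of the 434 windows (1.15%) at a 5% false discovery rate, beside 0.0934% of all windows tested. Of the 16 windows at the level that were left out for a dominant position, 4 were called, all higher in replicate 1. The test compares 2 libraries and covers counting error only, and the selected windows are the most deeply counted, so smaller differences can be called in them. With each position counted once, 12 of the selected windows were called.

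Of the 5, 4 were higher in replicate 1: the 3 strongest windows and chr10:80640001-80650000 on the plus strand. The log2 difference was 0.12 in the strongest window on chromosome 19, from 5790001, 0.19 in its neighbour from 5800001 and 0.35 in the window on chromosome 17 from 39980001. These differences were small in size and rested on at least 5191 cDNAs per library. The window on chromosome 10 held 212.2 and 141.1 CPM, a log2 difference of 0.59. The window matched to Eif4g2, a gene of translation initiation, at chr7:118210001-118220000 on the minus strand, held 180.3 and 273.3, a log2 difference of -0.60, and was the only selected window called higher in replicate 2. This name is among the less secure. Over the placed model, exons made up 52.25% of the length and held 55.08% of the positions. The model stayed the best in 2 of the 4 alternative settings.

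The other libraries gave the same measure in cDNAs that the selection did not use. The 434 windows held 8.24% of their cDNAs. Levels there ran from 36 to 11159 CPM with a median of 97.5, all 434 windows were at 20 CPM or more and 419 at 50 or more. At the threshold of 100, 212 windows (48.8%) passed, beside 1.95% of the 21841 windows with 50 or more cDNAs in all libraries together. Seen from the other side, 212 of the 423 nuclear windows at 100 or more in the other libraries (50.1%) were among the 434.

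The level in the other libraries relative to the pooled cDNAs of both replicates, in which replicate 2 weighs more, had a median log2 difference of -0.76 in the 434 windows and of -0.09 over all windows tested. An exact binomial test with Benjamini-Hochberg adjustment called 353 of them lower in the other libraries, beside 13.4% of all windows tested, and 19 higher, beside 14.5%. Since the windows were selected on high values in the replicates, nothing is read from that direction. The range was wide: log2 differences ran from -1.68 to 1.21. The lowest was at chr14:35360001-35370000 on the minus strand, with an unweighted replicate mean of 183.1 and 57.1 in the other libraries. The highest was at chr11:116710001-116720000 on the minus strand, with 116.7 and 256.5 by the same unweighted mean. A strong window that stood out, named after its value was seen, was chr17:23950001-23960000 on the plus strand, with 456.6 and 896. The second strongest window, from 39980001 on chromosome 17, was higher in the other libraries too, at 11159 against a replicate mean of 7560.

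**Figure D5:**
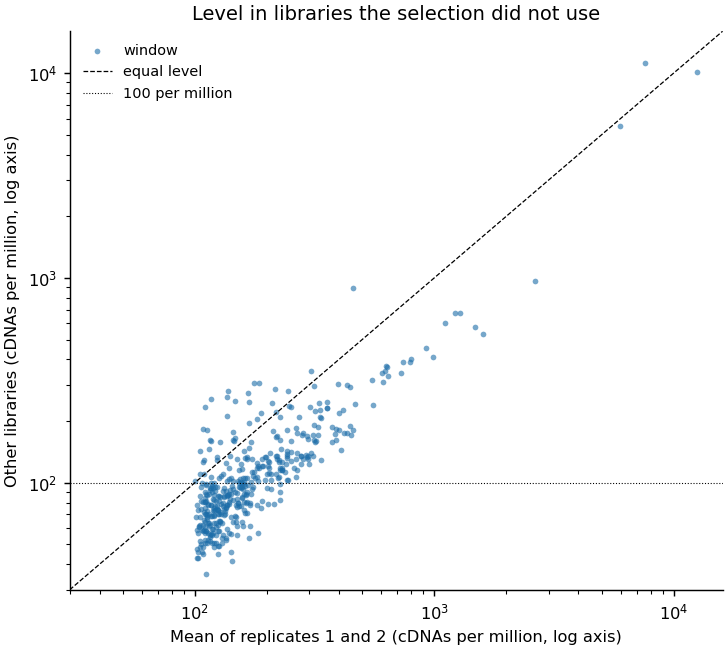
Level of each of the 434 windows in the mean of replicates 1 and 2 (horizontal) and in the other libraries (vertical), in CPM on log axes, with the line of equal level dashed and 100 CPM dotted. Most points lie below the line of equal level, and 212 of the 434 lie at or above 100 CPM.

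Named loci followed the same spread. The ratio of the other libraries to the replicate mean had a median of 0.633 over the 49 named loci and of 0.634 over all 178. It was lowest in Plekha6 (0.392), Cacna1c (0.41) and Flnc (0.429), was 0.488 in Ttn, and exceeded 1 in Heg1 (1.65), Atxn2l (1.57), Bclaf1 (1.34) and Srcap (1.04). The models of Plekha6, Cacna1c and Flnc were not the best in the other libraries. In Heg1, which encodes a receptor of cell junctions, the window held 178 and 193 CPM in the replicates and 306 in the other libraries. Which cells or treatments these libraries stand for is not used here, so the ratios are values without an interpretation. The profile within windows was shared to a varying degree. Between the replicates together and the other libraries, r over 100 nt bins had a median of 0.49, beside 0.59 between the replicates. It ranged from -0.19 to 0.99, and these profiles too share the mappable sequence of the window.

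Near the thresholds the choice was fine-grained. The members just inside the level were chr6:119910001-119920000 on the minus strand (100.6 and 100.3 CPM), which lies in the locus matched to Wnk1, chr8:13240001-13250000 on the minus strand (100.6 and 101.2) and chr6:119000001-119010000 on the minus strand (100.6 and 102.9), the 5′ end of the run of 17 windows. They are ordered by the lower replicate and then by the higher, since 6 windows tied at 82 cDNAs in replicate 1. Just outside lay chr16:16250001-16260000 on the plus strand (110.4 and 99.84), the neighbour of the window matched to Pkp2, chr6:120960001-120970000 on the minus strand (106.7 and 99.84) and chr18:61740001-61750000 on the plus strand (112.8 and 99.39). A single cDNA of replicate 2 separated each of the first pair from the threshold.

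At the limit on single positions, the members just inside were the same chr8:13240001-13250000, with 4.88% at its strongest position in replicate 1, chr6:3150001-3160000 on the plus strand with 4.73%, and chr11:119320001-119330000 on the plus strand, in the run matched to Rnf213, with 4.67%. Just outside were chr9:78020001-78030000 on the minus strand, with 5.77% and 4.2% and a level of 2167 and 1426 CPM, chr5:147070001-147080000 on the plus strand with 6.21% and 6.46%, and chr11:108870001-108880000 on the minus strand with 6.51% and 4.14%. Of the 16 windows left out, the extreme was chr18:10150001-10160000 on the minus strand, where 1 position held 92.7% and 88.8% of the cDNAs. The window on chromosome 9 would have ranked among the 10 strongest.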

How the data were processed

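iCLIP of SRSF3-GFP in neonatal cardiomyocytes was measured in 2 replicates, grouped by the labels. The authors' deposited tracks give each nucleotide a signed score. Its size is a cDNA number and its sign gives the strand, as the file headers and the values show, and it is unscaled. The headers name mm9 and Ensembl 59, and the submitters' processing notes name Bowtie 0.10.1 as the mapper. The treatment of duplicates and of reads with several matches was not given in the sources used here. Where reads of repeated sequence were placed can move the level of a window.

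Scores were summed per window of 10 kb and strand and divided by the library total. Depth was 815414 and 2253688 cDNAs, so the threshold of 100 CPM (cDNAs per 1000000 of the library) corresponds to 82 and 226 cDNAs. Means and SDs are over 2 replicates. The other libraries are the merged track minus both replicates. Windows with 50 or more cDNAs were tested against the ratio of library totals with the two-sided exact binomial test, adjusted by Benjamini-Hochberg at 5%. Evenness was rarefied analytically to 80 cDNAs. Runs join adjoining selected windows of a strand. All 3 tracks were used, and there were 0 columns of other samples.

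Gene models came from GENCODE M21, which is on another build, and no coordinate was converted. For matching, distinct positions were binned at 50 nt, at most 4 counted per bin, a running mean of about 2 kb was taken off, and 60000 nt on either side were included. The plan was to name windows by position without an annotation of the build. Matching was added after the tracks were seen, its settings were the third tried and were settled with the agreement in chromosome known, and the margin of 1 and the second criterion were chosen after the matches were seen. The agreement is thus not fully independent of these choices. A search limited to a locus's own chromosome and strand was tried and not used, because some of its matches went against the gene order. The matching step was tested on simulated loci drawn from the same gene models that it searches, and the outcome is not given here. Python 3.11.15, numpy 2.4.6, pandas 2.3.3 and scipy 1.17.1 were used.

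Named items were the 10 longest runs, the 10 strongest windows by their lower replicate, the 3 most and 3 least even by the mean of the replicates, the 3 of lowest strand purity, the 3 on either side of each threshold, windows that differ between the replicates, and, once loci were matched, their genes and list members. Other windows were named after their values were seen. Members and lists were chosen with earlier results of these data known. Alternatives were other levels, position limits, window sizes and grids, other totals, leaving out each replicate, other bins and other minimum counts. Some matched loci are not reported here. No sequence of mm9 is printed.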

Additional observations from a re-analysis of the deposited data

How the results depend on the processing

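The number of windows followed the level and window size chosen. At 50 CPM there were 1616 windows in 781 runs, 147 of them of 3 or more windows, and at 200 CPM 128 windows in 59 runs, 14 of 3 or more and the longest of 13 windows. The order of the runs changed with it: at 200 CPM the run of 28 windows on chromosome 2 fell to 11, that of 15 on chromosome 17 became the longest with 13, and the run of 17 and both runs of 9 were left with 0. With the grid moved by 5 kb, the run of 28 kept 28 windows and the run of 10 on chromosome 8 fell to 6. A limit of 2% on single positions left 265 windows, 23 runs of 3 or more and a longest run of 16. Windows of 5 kb at the same level gave 267 windows in 120 runs, 23 of 3 or more, and windows of 20 kb gave 770 in 411 runs, 72 of 3 or more. Median evenness, 86.5% of flat signal with 100 nt bins, was 88.3% with 50 nt and 86.6% with 200 nt, and 86.4% to 86.6% with 1 replicate. Median strand purity was 99.8% without replicate 1 and 100% without replicate 2. Counting each position once, 12 selected windows and 23 of all windows differed between the replicates, in place of 5 and 13.

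With bins of 100 nt, 24 loci passed the margin on their own chromosome and strand in place of 48, and 38 of the 49 named loci kept their best model. In the other libraries alone 21 passed and 30 names recurred. With 1 replicate between 26 and 44 passed. Without replicate 2 the best model was kept at 32 of the 49, and without replicate 1 at 48. These matching alternatives were chosen after seeing the data, as was leaving out the 5 windows that differ between the replicates, which leaves 429. The depth of replicate 1, at which the threshold is 82 cDNAs, limits the evenness and profile of single windows. No paired analysis was possible because the 2 iCLIP replicates form 1 group.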
